A study of Mus musculus with 30 samples.

Results

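The core circadian clock genes Per1, Per2, Per3, Cry1, Cry2, Clock, Arntl (also called Bmal1), Npas2, Dbp and Ciart were examined in bulk ATAC-seq data from the mouse ventral hippocampus. ATAC-seq uses a transposase that cuts open chromatin, so the count in a region (a peak) measures how accessible that DNA was. A peak was assigned to a gene when it overlapped the RefSeq extent of the gene or the 10 kb on either side. This rule, which used no measured change, took 248 of the 257149 regions in the deposited table. Arntl held 64 of them, Npas2 69, Per2 32, Per3 23, Clock 19, Ciart 16, Cry2 10, Cry1 7, Per1 5 and Dbp 3. All 248 passed the filter on low counts.

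The study asked how repeated restraint alters the hippocampal response to a later restraint. One history was gentle handling and the other was restraint in a tube on each of 10 days, at changing hours. All mice were then housed singly for 24 h, and tissue was taken at rest (0 min) or 45 min into a new restraint session (the acute restraint). The 4 groups were handled mice at 0 min (n = 8), handled mice at 45 min (n = 7), chronically restrained mice at 0 min (n = 8) and chronically restrained mice at 45 min (n = 7). Each group held 3 or 4 mice of each sex and had libraries in all 4 batches. The labels give no strain, age or genotype, and no hour of collection for a single animal. Stress sessions fell across several daytime hours within the active phase of mice on a reversed light cycle, so clock phase at collection could not be entered in any model.

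The clock is a loop of transcription. CLOCK, or its relative NPAS2, pairs with BMAL1 (the product of Arntl) and activates genes through short sequences called E-boxes. PER and CRY proteins build up, enter the nucleus and repress that pair, which closes the loop over about a day. Dbp and Ciart are driven by the same pair. DBP is a transcription factor that binds D-boxes, and CIART (CHRONO) is a further repressor. Per1 is also known as a target of the glucocorticoid receptor, which is why stress studies often look at it. In the hippocampus the clock genes cycle with a phase set in part by glucocorticoids.

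The promoters of 4 genes show the clock's own sequences most plainly, and each lies beneath the peak over its gene's start. They are the 250 bases before a start site, taken from RefSeq on GRCm38.p6 and written 5′ to 3′ along the gene. Per1 (the first of 2 listed start sites) is chr11:69098699-69098948 on the plus strand, Per3 is chr4:151044666-151044915, Cry1 is chr10:85185055-85185304 and Ciart is chr3:95882229-95882478, the last 3 on the minus strand. Capitals mark matches to the searched motifs.
Per1: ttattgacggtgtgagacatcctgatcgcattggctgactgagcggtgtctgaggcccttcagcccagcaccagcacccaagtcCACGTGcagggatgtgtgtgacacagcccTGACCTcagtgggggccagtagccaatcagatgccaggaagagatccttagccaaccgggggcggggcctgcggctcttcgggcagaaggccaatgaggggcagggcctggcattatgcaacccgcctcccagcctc
Per3: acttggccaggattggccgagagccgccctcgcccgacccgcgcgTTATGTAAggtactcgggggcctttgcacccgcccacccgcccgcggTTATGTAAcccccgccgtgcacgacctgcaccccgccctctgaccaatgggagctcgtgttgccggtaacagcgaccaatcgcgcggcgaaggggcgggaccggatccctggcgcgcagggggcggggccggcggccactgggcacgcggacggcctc
Cry1: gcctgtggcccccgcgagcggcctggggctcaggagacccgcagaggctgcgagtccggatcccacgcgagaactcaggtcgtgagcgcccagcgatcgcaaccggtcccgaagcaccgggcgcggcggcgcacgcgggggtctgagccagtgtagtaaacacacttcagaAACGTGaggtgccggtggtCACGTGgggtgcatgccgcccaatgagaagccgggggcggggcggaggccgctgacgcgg
Ciart: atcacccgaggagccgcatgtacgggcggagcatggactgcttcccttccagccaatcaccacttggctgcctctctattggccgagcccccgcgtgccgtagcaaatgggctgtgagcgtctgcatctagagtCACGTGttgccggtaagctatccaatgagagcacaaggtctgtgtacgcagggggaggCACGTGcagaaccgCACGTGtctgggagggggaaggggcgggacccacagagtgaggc
In Per1 the capitals are an E-box (CACGTG) 166 bases before the start site and the reverse complement of AGGTCA 137 bases before it. AGGTCA is only a part of the element of ROR and REV-ERB receptors. It occurred in 16.3% of all 32851 promoter windows, so these letters alone do not mark a site of those receptors. Per3 held the D-box TTATGTAA at 205 and again at 158 bases before its start. In Cry1 an E-box lay 60 bases before the start and the E-box-like CACGTT, seen as its reverse complement, 79 bases before it. Ciart held 3 E-boxes, at 116, 58 and 44 bases before the start.

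The search covered both strands of 300-base windows (250 bases before to 50 after each start). It sought the E-box CACGTG, the related letters CACGTT, the D-boxes TTATGTAA and TTACGTAA and the cyclic AMP response element TGACGTCA. It also sought AGGTCA, the part of the ROR and REV-ERB element named above. The full glucocorticoid response element and its arm AGAACA were searched as well, and the arm is part of the full element. RefSeq windows matched 9 of the 10 genes, 13 windows in all, and Per2 had none in the table. CACGTG occurred in 7.15% of all 32851 windows and 3 or more copies in 0.0883%. TTATGTAA occurred in 0.938% of windows and 2 or more copies in 0.0213%. CACGTT was also found in Cry2, 166 bases before its start (4.68% of all windows), and AGGTCA in one window each of Clock and Arntl (16.3%). TTACGTAA (0.119%), TGACGTCA (1.79%), AGAACA (19%) and the full glucocorticoid element (0.00913%) were not found in any of the 13 windows. The full element is so rare that its absence from 13 windows says little, and sites farther from the starts were not searched. No listed motif was found in the windows of Npas2 and Dbp. A match describes the letters and does not show that a factor was bound.

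Library totals ran from 26104576 to 55294838 counts in peaks, and the median clock peak had a mean of 60.2 counts per library, against 58.97 over all peaks. Values below are CPM (counts scaled to a common library size) with scaling by TMM (trimmed mean of M values), and changes are log2 differences ± SE from the edgeR model with group, sex and batch. Animal 45 (handled, 0 min, female, batch 4) gave a library that stood apart. Peaks at gene ends held 42.1% of its counts, against at most 40.3% in any other library. Markers of hippocampal granule and pyramidal cells (4 of 4) had gene-end peaks, up to 28.4 CPM per kb, while the astrocyte markers Aqp4 and Gja1, the choroid plexus markers Ttr, Folr1 and Clic6 and the neighbouring-region marker Six3 had none. No marker of any cell type listed was called after acute restraint. In bulk tissue, fewer cells of a type and less accessibility per cell cannot be told apart.

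The peaks over the starts of the clock genes were among the more accessible in their windows and varied little between groups. Gene-end peaks, which overlap the 1 kb on each side of a gene's first or last base, numbered 18, with a median level of 6.12 CPM per kb. The other 230 clock peaks had a median of 2.59 CPM per kb. Over the whole table the same medians were 3.41 for gene-end peaks and 2.71 for other peaks. Per length, the order of the start regions was Arntl at 14.03 CPM per kb, Clock 11.2, Ciart 10.5, Cry2 10.3, Dbp 9.20, Per1 8.51, Per2 8.38, Per3 7.33, Cry1 6.73 and Npas2 4.99. Neighbours in that order, such as Ciart and Cry2 or Per1 and Per2, lay within the spread of single libraries. For Arntl the RefSeq extent begins well before the accessible start site, and the peak given is the one over its RefSeq promoters. For Per2 it is the gene-end peak with the most counts. Npas2 has a more covered peak past its far end (chr1:39366664-39369938, 30.4 CPM), which overlaps Rpl31. Some of these regions are wide: the Per1 region spans 28853 bp and includes Vamp2, and the Dbp region spans 35336 bp and also covers Car11, Sphk2, Rpl18, Fam83e, Spaca4 and Sult2b1. A value there is a mean over several genes.

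**Figure D1:**
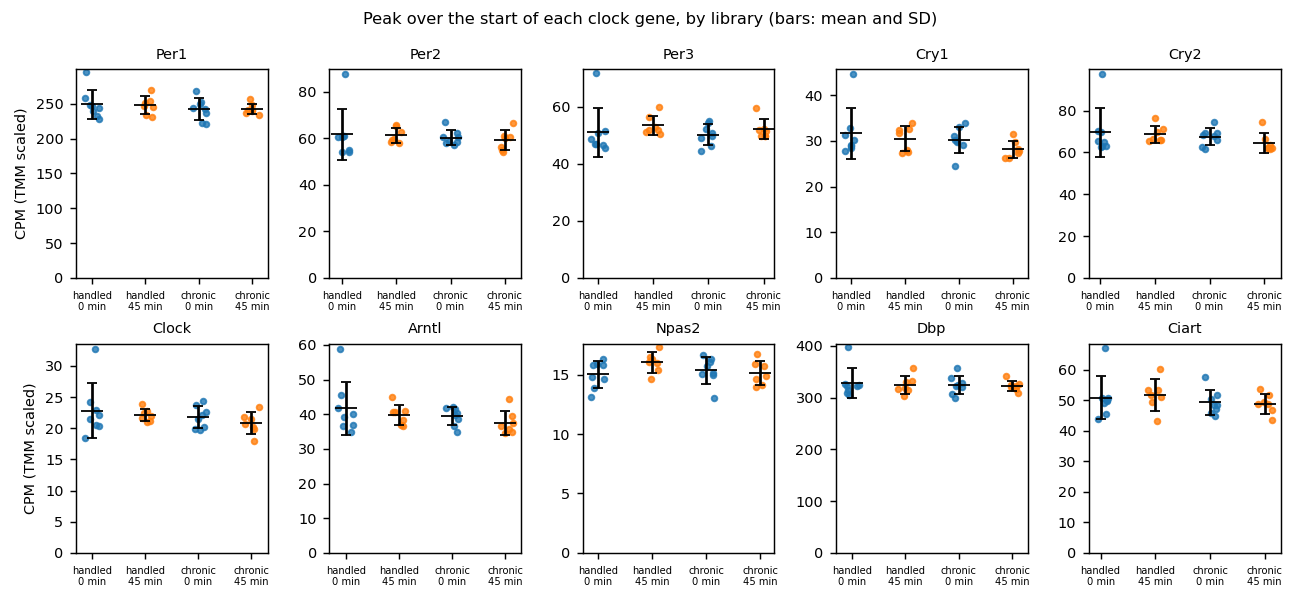
Level of the peak over the start of each clock gene (vertical axes, TMM-scaled CPM from 0) in the 4 groups, 1 point per library, with the mean and SD as bars. The groups overlap for all 10 genes, and the single high point among handled mice at 0 min, in every panel but Npas2, is animal 45.

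Per1, the period gene most linked to glucocorticoids, did not pass the test over the wide region that holds its start. That region of 28853 bp covers the whole gene and includes Vamp2, so its value is not one of the Per1 promoter alone. The region, at chr11:69085586-69114438, lay between 228 and 296 CPM (median 246) in handled mice at 0 min and between 232 and 270 (median 247) in handled mice at 45 min. With a chronic history the values were 221 to 268 (median 243) at 0 min and 234 to 257 (median 241) at 45 min. All 4 ranges overlapped. The acute change averaged over both histories was -0.00062 ± 0.032 on the log2 scale, with a 95% interval of -0.064 to 0.063 (edgeR adjusted p = 0.999).

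Per2, a period gene needed for a stable rhythm in mice, did not pass it either at its gene-end peak chr1:91453809-91461041. Handled mice had 54.2 to 87.7 CPM (median 60.6) at 0 min and 58.0 to 65.5 (median 59.4) at 45 min, and chronically restrained mice 57.03 to 67.0 (median 59.5) at 0 min and a median of 60 at 45 min (54.0 to 66.7). The highest value belongs to animal 45, and the groups otherwise shared one range. Its acute change was -0.0082 ± 0.044, with an interval of -0.096 to 0.079.

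Per3, a period gene that is less needed for the rhythm itself, had 45.5 to 71.6 CPM (median 47.7) at its start peak chr4:151041212-151048249 in handled mice at 0 min and 50.6 to 59.8 (median 51.9) at 45 min. The chronically restrained mice had 44.5 to 54.9 (median 50.2) and 49.5 to 59.5 (median 51.6). Both medians were higher at 45 min, but the ranges overlapped. The averaged change was 0.074 ± 0.043, and the edgeR adjusted p was 0.774. The region also overlaps Gm38529 and Vamp3.

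The repressors Cry1 and Cry2 did not pass the test at their starts. Cry1, at chr10:85182631-85187115, had group medians of 29.7 (handled, 0 min), 31.7 (handled, 45 min), 30.1 (chronic, 0 min) and 27.9 CPM (chronic, 45 min). The range over libraries was 24.5 to 44.6 CPM, with the extremes in different groups. Its acute change was -0.057 ± 0.047 and its chronic change -0.090 ± 0.046 (edgeR adjusted p = 0.883 and 0.912). Both were the smallest p-values of the 7 Cry1 peaks. Cry2, at chr2:92430514-92437116, had group medians between 62.3 and 68.1 CPM, an acute change of -0.029 ± 0.044 and a chronic change of -0.066 ± 0.044.

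The activators were close to level as well. At the Clock start peak chr5:76303485-76305440 the group medians were 21.75, 21.95, 21.75 and 20.73 CPM in the order handled 0 and 45 min, chronic 0 and 45 min, and the acute change was -0.034 ± 0.048. At Arntl (chr7:113205936-113208766) they were 39.6, 40.6, 40.0 and 36.6 CPM in the same order, with a change of -0.050 ± 0.048. Npas2, the forebrain partner that can stand in for CLOCK, had 15.3, 16.1, 15.4 and 14.9 CPM at chr1:39191935-39195017 and a change of 0.038 ± 0.043. The output genes Dbp (-0.012 ± 0.031, over its region of 35336 bp) and Ciart (0.012 ± 0.046) were as near to 0. None of these changes passed the edgeR threshold, and each 95% interval held 0.

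After acute restraint, averaged over both histories, edgeR's quasi-likelihood test called 0 clock peaks (adjusted p under 0.05) and 0.116% of all 257143 tested peaks. DESeq2 also called 0. At an unadjusted p under 0.05 there were 16 of 248 (6.45%), against 7.17% of all peaks, and 12 of the 16 were higher at 45 min. The direction of all peaks at that p was not counted. The median change over the 248 peaks was -0.0069, with 117 positive (47.2%). The same median over all peaks was -0.0025, with 49% positive. The share of clock peaks with a small p and the share with a positive change were both slightly below those of all peaks.

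**Figure D2:**
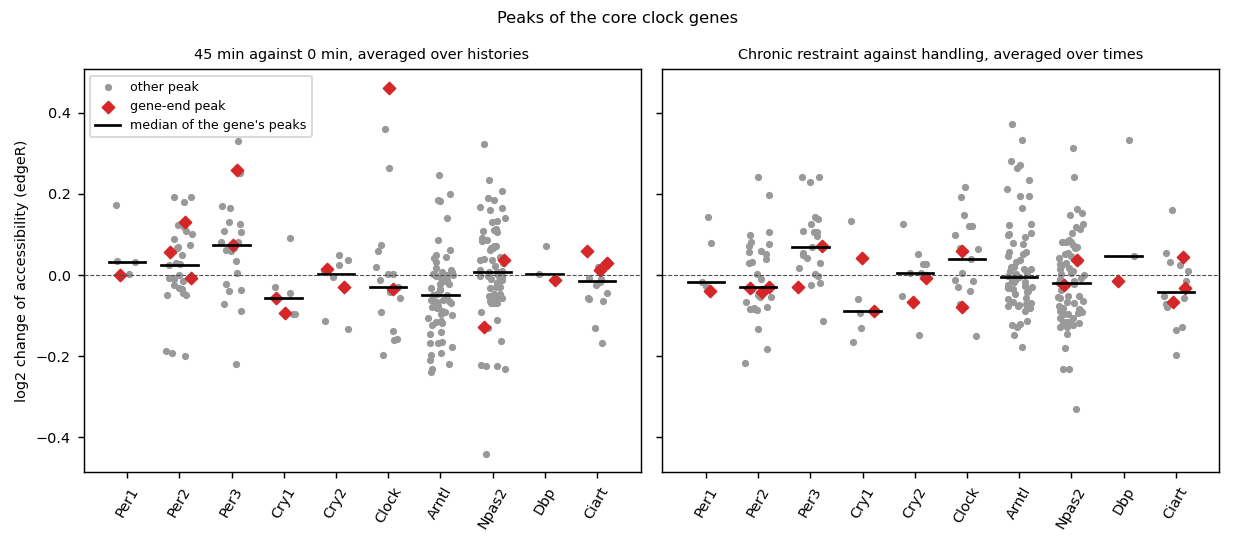
Log2 change of each of the 248 clock peaks (vertical axis), by gene, for 45 min against 0 min (left) and chronic restraint against handling (right). Grey points are other peaks, red diamonds gene-end peaks, and black lines the median of the gene's peaks. The Clock diamond at 0.46 on the left is the short peak just before the Clock start.

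The clock peak with the smallest p after acute restraint was a short one of 255 bp at chr5:76305656-76305910. It overlaps no gene and lies 215 bases beyond the main Clock start peak, on its upstream side. Handled mice had 0.445 to 0.978 CPM (median 0.610) there at 0 min and 0.732 to 1.18 (median 0.778) at 45 min. Chronically restrained mice had 0.567 to 0.835 CPM (median 0.658) at 0 min and 0.572 to 1.16 (median 0.958) at 45 min. The later groups were higher by median in both histories, and the ranges overlapped in both. The averaged change was 0.46 ± 0.12, an estimate 37.8% higher. Its edgeR p was 3.4e-04 before adjustment over all peaks and 0.127 after it. It was 0.48 ± 0.17 in handled and 0.44 ± 0.17 in chronically restrained mice. Within batches 1 to 4 it was 0.47, 0.41, 0.48 and 0.54. The peak was picked for the smallest p over these same libraries. The size of its change and the values by history and batch are therefore not independent of that choice. This peak rests on a mean of 30.4 counts per library, and its adjusted p fell to 0.0494, a call, when the share of counts in the top 1% of peaks was added to the model, an alternative chosen after seeing the data.

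Other clock peaks with small p-values lay inside the long genes. They too were picked by p over the same libraries, so their values by batch are not independent of that choice. Within Npas2, a peak at chr1:39246962-39248033 had 2.80 to 4.15 CPM (median 3.44) in handled mice at 0 min and 3.65 to 5.38 (median 4.11) at 45 min. In chronically restrained mice the values were 2.35 to 3.88 (median 3.25) and 3.58 to 4.53 (median 3.79). The medians were higher at 45 min in both histories, with a change of 0.23 ± 0.069 (edgeR adjusted p = 0.229), and it was between 0.17 and 0.34 in each batch. At the far end of Per3, chr4:150997879-150998672, which overlaps Uts2, the change was 0.26 ± 0.091 (edgeR adjusted p = 0.387), and in batches 1 to 4 it was 0.06, 0.33, 0.37 and 0.34. Inside Arntl, the peak at chr7:113255392-113256393 had a change of -0.22 ± 0.078 (edgeR adjusted p = 0.399), and in batches 1 to 4 it was -0.32, -0.34, 0.03 and -0.28. Its medians at 0 and 45 min were 2.79 and 2.42 CPM in handled mice and 3.12 and 2.72 in chronically restrained mice, with overlapping ranges. Of the 3 Arntl peaks with an unadjusted edgeR p under 0.05, only this one was lower at 45 min, and 2 were higher. The smallest p-values of the remaining genes belonged to changes of -0.11 ± 0.048 at Cry2, 0.070 ± 0.040 at Dbp, -0.20 ± 0.10 at Per2, 0.17 ± 0.11 at Per1 and -0.17 ± 0.11 at Ciart.

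Gene ends and other clock peaks differed little after acute restraint. The median change was 0.014 at the 18 gene-end peaks (10 positive) and -0.0076 at the 230 others (107 positive). Over all peaks these medians were 0.0037 for 26740 gene-end peaks and -0.0038 for 230403 others. The short Clock peak and the far Per3 peak were the gene-end peaks with an unadjusted p under 0.05. With chronic restraint 5 of 18 gene-end clock peaks were positive (27.8%, median -0.029), and 41.9% of all gene-end peaks were (median -0.015). At the other clock peaks 117 of 230 were positive (50.9%, median 0.0032), against 48.7% of all other peaks (median -0.0032). Without animal 45, 9 of the 18 gene-end clock peaks were negative in place of 13, and 49.6% of all gene-end peaks in place of 58.1%. The change was then above 0 at the reference peaks of Per2 (0.00465), Per3 (0.0129), Dbp (0.0126) and Cry2 (0.00152) and below 0 at the start peaks of Per1, Cry1, Cry2, Clock, Arntl, Npas2 and Ciart. Between females and males the direction at gene ends was the other way, with 13 of 18 clock gene-end peaks higher in females and 65.6% of all gene-end peaks. Of the other clock peaks 116 of 230 were higher in females (50.4%), and 50.3% of all other peaks were. These shares describe the peaks and were not tested.

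The genes differed from one another in the lean of their peaks. Per3 had 17 of 23 peaks with a positive acute change (median 0.074) and Arntl 20 of 64 (median -0.050). Cry1 had 1 of 7, Ciart 5 of 16, Clock 8 of 19, Cry2 5 of 10, Npas2 37 of 69, Per2 18 of 32, Per1 4 of 5 and Dbp 2 of 3. In handled mice alone Per3 had 15 of 23 and Arntl 22 of 64, and in chronically restrained mice 19 of 23 and 19 of 64. The acute effects in the 2 histories share no libraries. Peaks of one gene come from the same libraries, so these counts are not replicates.

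**Figure D3:**
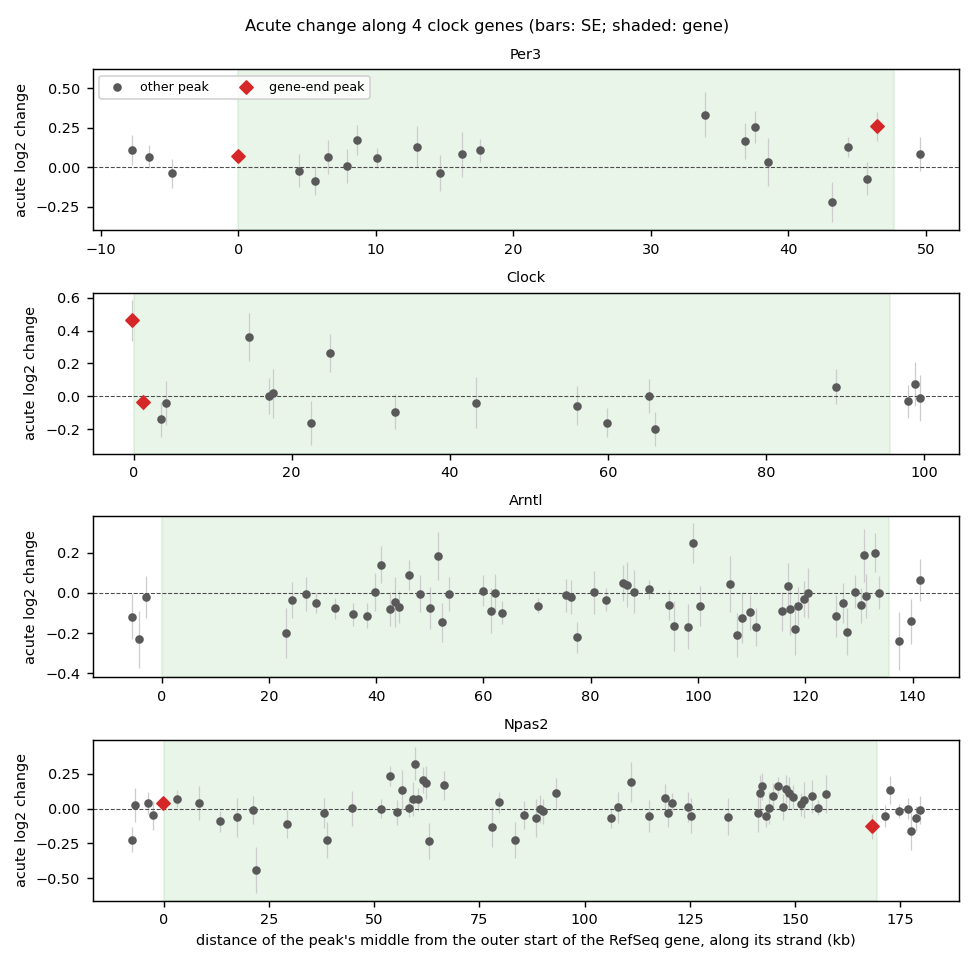
Averaged acute log2 change (vertical axes, bars ± SE) of each peak of Per3, Clock, Arntl and Npas2 by distance of its middle from the gene's outer start in kb (horizontal axes), with the gene shaded. Red diamonds are gene-end peaks. Most Per3 points lie above 0 and most Arntl points below it, while those of Clock and Npas2 scatter on both sides.

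Summing the counts over all peaks of a gene and testing all 17633 protein-coding genes in the same way gave 1 value per gene with more counts behind it. Summed CPM are scaled to the total over all gene sums, in which a peak shared by genes counts in each. They are therefore not on the scale of the CPM of single peaks. No clock gene was called for the averaged acute effect by edgeR (background 1.17% of genes). Per3 came nearest, and 8 of the 23 peaks in its window overlap other genes, the start peak among them. The summed level of Per3 was 55.2 to 62.8 CPM (median 60.04) in handled mice at 0 min and 60.8 to 64.9 (median 63.7) at 45 min. With a chronic history it was 57.2 to 63.6 (median 61.0) and 61.8 to 66.7 (median 63.7). The mice at 45 min were higher by median in both histories, and the ranges overlapped. Its change was 0.072 ± 0.019, or 5.14%, with an edgeR adjusted p of 0.0517, and it was 0.071 ± 0.027 in handled and 0.074 ± 0.027 in chronically restrained mice. In batches 1 to 4 it was 0.03, 0.07, 0.12 and 0.07.

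Arntl stood on the other side. Its summed level was 140 to 152 CPM (median 147) in handled mice at 0 min and 138 to 146 (median 142) at 45 min, and 143 to 150 (median 148) and 137 to 149 (median 142) in chronically restrained mice. The medians were lower at 45 min, again with overlap. The change was -0.049 ± 0.014, with an edgeR adjusted p of 0.0799, and -0.051 ± 0.020 and -0.048 ± 0.020 in the 2 histories. In batches 1 to 4 it was -0.07, -0.09, -0.01 and -0.02, and in batch 2 alone it passed (edgeR adjusted p = 0.0356), as did 1.72% of all genes. Without animal 45 both genes passed, Per3 at an edgeR adjusted p of 0.00929 and Arntl at 0.0415, and 1.67% of all genes did. Per3 alone also passed with RLE scaling (0.0476) and Arntl alone with total count scaling (0.0261).

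The other 8 genes had summed changes between -0.052 ± 0.031 at Cry1 and 0.019 ± 0.015 at Per2. Without animal 45 the acute value of Cry1 was -0.034 ± 0.024. For Per1 the 95% interval was -0.021 to 0.046, for Dbp -0.037 to 0.024 and for Cry2 -0.026 to 0.023, so larger changes of the whole window lay outside the intervals. In handled and in chronically restrained mice alone no clock gene was called, where 0.142% and 0.051% of all genes were.

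**Figure D4:**
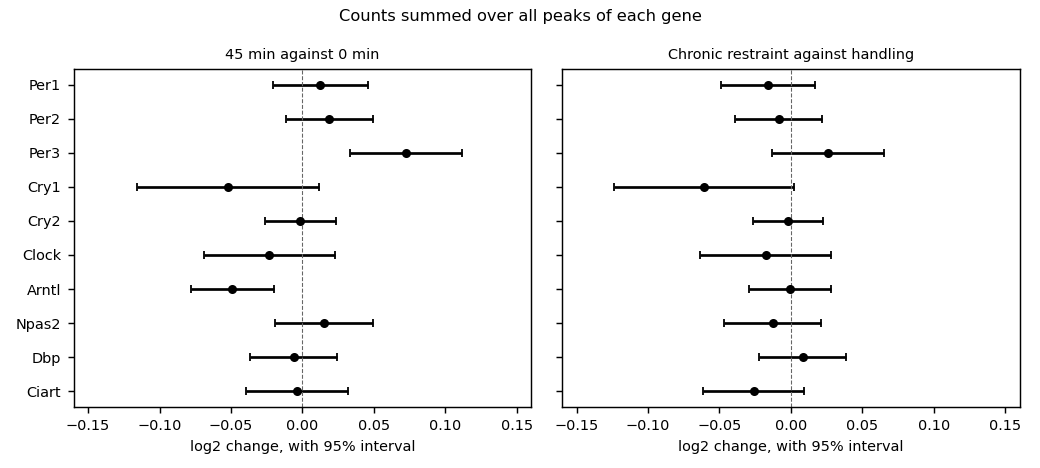
Log2 change of the counts summed over all peaks of each clock gene (points) with its 95% interval (bars), for 45 min against 0 min (left) and chronic restraint against handling (right). On the left the intervals of Per3, above 0, and Arntl, below 0, leave out 0 before adjustment for the number of genes tested. On the right all 10 intervals hold 0.

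Within each history the single peaks gave the same outcome. In handled mice edgeR called 0 of 248 clock peaks (0.0109% of all peaks), with 10 at an unadjusted p under 0.05 (5.52% of all peaks had one), and DESeq2 called 0. In chronically restrained mice edgeR called 0 (0.00272% of all peaks), with 14 at an unadjusted p under 0.05 (4.73% of all peaks), and DESeq2 called 0. For the difference between the acute effects of the 2 histories edgeR called 0 clock peaks and 0% of all peaks, with 6 clock peaks at an unadjusted p under 0.05 (3.03% of all peaks), and DESeq2 called 0. At gene level this difference was at most 0.023 in size for any clock gene (Clock, -0.023 ± 0.045), and 0% of all genes were called.

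For chronic restraint averaged over both times, edgeR called 0 clock peaks and 0% of all peaks, and DESeq2 called 0 clock peaks too. Of the 248, 17 had an unadjusted p under 0.05 (6.85%, and 5.44% of all peaks). Of these 17, 15 were higher after chronic restraint, and 7 of the 15 were in Arntl, which held 64 of the 248 peaks. Peaks of one gene share libraries, and the direction of all peaks at that p was not counted. The smallest p was at a 517 bp peak beside Dbp, chr7:45695968-45696484. Handled mice had 0.684 to 1.76 CPM (median 1.23) at 0 min and 0.821 to 1.56 (median 1.10) at 45 min, and chronically restrained mice 1.24 to 2.04 (median 1.38) and 1.15 to 2.11 (median 1.54). The chronic groups were higher by median, with overlap. The change was 0.33 ± 0.11, with an edgeR adjusted p of 0.892. A 291 bp peak inside Arntl (chr7:113298850-113299140) had a change of 0.33 ± 0.12 and one inside Per3 (chr4:151038755-151039469) of 0.24 ± 0.089 (edgeR adjusted p = 0.897 for both). The Arntl peak with the acute change of -0.22 had a chronic change of 0.19 ± 0.077. The acute and chronic comparisons share all 30 libraries.

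At 0 min alone and at 45 min alone edgeR called 0 clock peaks for chronic restraint, as for 0% of all peaks. Each time had 10 clock peaks at an unadjusted p under 0.05, against 4.6% of all peaks at 0 min and 3.78% at 45 min, and DESeq2 called 0. At gene level the averaged chronic effect was between -0.061 ± 0.031 (Cry1) and 0.026 ± 0.019 (Per3), 0% of all genes were called, and the smallest edgeR adjusted p of a clock gene was 0.487 (Cry1). Without animal 45 the chronic value of Cry1 was -0.034 ± 0.024. For females against males edgeR called 0 of 248 clock peaks and DESeq2 0, with 9 at an unadjusted p under 0.05 (5.37% of all peaks), where edgeR called 0.035% of all peaks. No clock peak differed between batches by edgeR's test of any batch difference, which called 4 of 257143 peaks.

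Another 24 genes of the clock pathway, among them the nuclear receptors, kinases and ubiquitin ligases that tune the loop, held 444 peaks. One was called for the averaged acute effect, where 0.116% of all peaks were called, and the same one in handled mice (0.0109% of all peaks). It lies at chr9:68679910-68680292 inside Rora, whose product activates Arntl. Handled mice had 0.260 to 1.27 CPM (median 0.773) there at 0 min and 1.24 to 1.89 (median 1.38) at 45 min. Chronically restrained mice had 0.778 to 1.73 (median 0.953) and 1.09 to 2.37 (median 1.41). It rose by 0.76 ± 0.12 on average (edgeR adjusted p = 8.6e-05) and by 0.99 ± 0.17 in handled mice (edgeR adjusted p = 0.0031). In chronically restrained mice the value was 0.52 ± 0.16 (edgeR adjusted p = 0.850). The difference between the histories, -0.47 ± 0.23, had an edgeR adjusted p of 1. No pathway peak was lower by the test, the median over the 444 was -0.0057 with 216 positive, and no pathway peak was called in any of the chronic comparisons or between the sexes.

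The reference peaks of the clock genes varied together from animal to animal. After group, sex and batch were removed, residual log2 CPM of the 10 reference peaks (the gene-end peak with the most counts, and the promoter peak for Arntl) gave 45 pairs. All 45 Pearson correlations over 30 libraries were positive, from 0.363 to 0.926 with a median of 0.769, and all 45 had a Benjamini-Hochberg adjusted permutation p under 0.05. Residuals of a fitted model are not fully exchangeable, so these p-values are approximate. The highest was Per1 with Dbp (r = 0.926, Spearman's rho = 0.874, permutation p = 1e-05 for both, the smallest that 100000 resamples can give, adjusted p = 2.0e-05 for r and 3.8e-05 for rho). It was 0.873 without the 2 libraries farthest from the Per1 median. The lowest was Npas2 with Ciart (r = 0.363, rho = 0.321, permutation p = 0.0489 and 0.0847, adjusted p = 0.0489 and 0.0847), and r was 0.242 without 2 libraries. The adjusted permutation p for rho was also above 0.05 for Cry2 with Clock (0.0688) and Cry2 with Ciart (0.0554).

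This joint variation was shared with most genes. The median correlation of Per1 with the reference peaks of 15550 other genes was 0.614, that of Per2 was 0.657, and the lowest such median was 0.4001 for Npas2. The peaks most like Per2 were those of E2f3 (r = 0.970), Mlec (0.968) and 0610009B22Rik (0.964), over 30 libraries. With the share of a library's counts that fell at gene ends as a further term, the median r of the 45 pairs was 0.0498, 26 were positive, and 4 kept an adjusted permutation p under 0.05. Those 4 were Per1 with Dbp (r = 0.637), Per2 with Clock (0.627), Dbp with Ciart (0.572) and Per3 with Dbp (0.533). Under that term the median correlation of Dbp with the other genes was 0.0549 and that of Per2 was 0.102, with 95th percentiles over genes of 0.465 and 0.522. The regions of Per1 and Dbp cover several genes, so their correlation is one of 2 gene neighbourhoods. The Cry2 reference peak is the 46018 bp region at the far end of the gene, which also covers other genes, and not the Cry2 start peak. Without animal 45, and without that term, 38 of the 45 pairs had an adjusted p under 0.05.

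**Figure D5:**
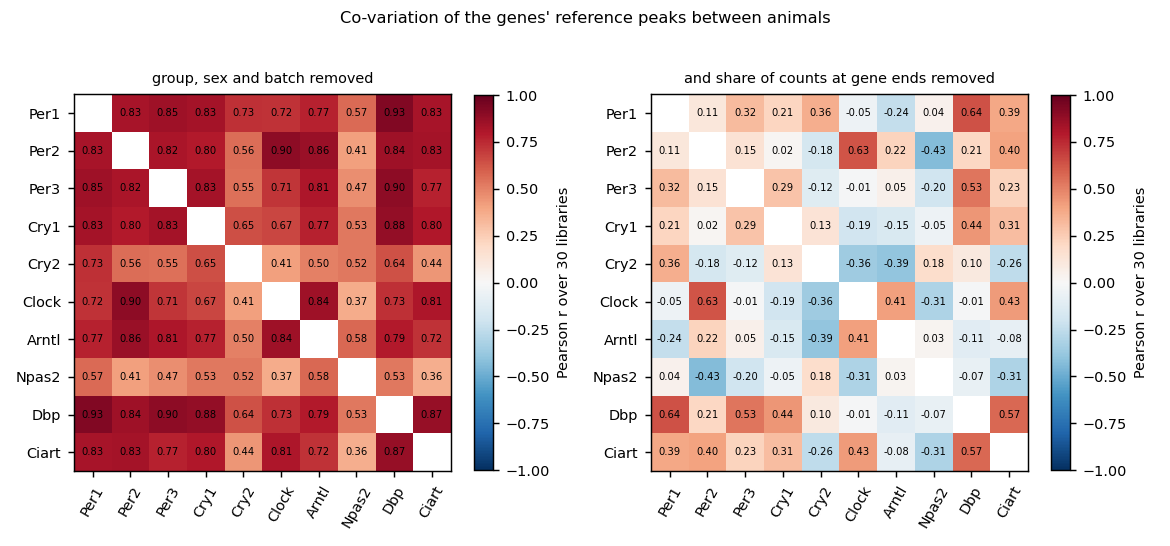
Pearson r over 30 libraries between the reference peaks of each pair of clock genes (both axes list the 10 genes, colour gives r from -1 to 1), with group, sex and batch removed (left) and with the share of counts at gene ends removed too (right). All pairs are positive on the left, between 0.363 and 0.926. On the right the values centre near 0, and the 4 that remained past the threshold are among Per1, Per2, Per3, Clock, Dbp and Ciart.

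The spread between animals at the reference peaks was close to the usual one. After group, sex and batch were removed the SD of log2 CPM was 0.139 for Per2, 0.138 for Per3, 0.150 for Cry1, 0.151 for Clock, 0.152 for Arntl and 0.148 for Ciart, and the median over the reference peaks of all genes was 0.150. The wide regions had less, with 0.0880 for Per1, 0.0892 for Dbp and 0.0442 for the 46018 bp Cry2 region over Large2, Pex16, 1700029I15Rik and Mapk8ip1, and so had Npas2 with 0.0905.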

How the data were processed

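Nuclei from the ventral hippocampus of 30 mice, 1 library per animal, were profiled by bulk ATAC-seq. The deposited table holds raw counts, as whole numbers per region, for 1 set of 257149 regions. Per the submitters' processing notes the build was GRCm38, and the tools were Bowtie2, Genrich 0.6.1, Picard and Trimmomatic. How regions were merged and what was counted (reads, fragments or insertions) is not given in the sources used here. The table held 2 columns that matched no sample and were not used. Of the regions, 100 are wider than 28 kb.

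Counts were analysed in R 4.3.3 with edgeR 4.0.16 (filterByExpr, TMM, glmQLFit with a robust trended prior, glmQLFTest) with group, sex and batch as terms. P-values were Benjamini-Hochberg adjusted over all 257143 tested peaks and called under 0.05. Counts summed per gene (window of 10 kb) were tested over 17633 genes. DESeq2 1.42.0, RLE and total count scaling, no filter, each sex, each batch left out, the library of animal 45 left out, and the share of counts in the top 1% of peaks as a covariate were the alternatives. The scripts were tested on simulated data. Gene extents and promoter windows came from RefSeq (GRCm38.p6), and strand was known where a window was listed. Co-variation used log2 CPM with a prior count of 2.

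The genes, lists and tests were chosen with earlier results of these data known. For each gene the text may name its reference gene-end and start peaks, its widest and most covered peak, and the peaks of smallest p in the averaged acute and in the averaged chronic comparison. Arntl has no gene-end peak at its RefSeq extent, and its most covered peak over a RefSeq start was used, a choice made after seeing the data. Intervals are 95% and come from the model. The edgeR p-values set an estimated change against the spread between animals.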

Additional observations from a re-analysis of the deposited data

Results flagged for a closer look

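For each named clock peak, a library was singled out when its distance to the nearest library of its group was large against the range of the group by Dixon's criterion at 95%. This held for 19 of 124 sets of a peak and a group. Chance gives about 1 in 20, but these sets share libraries and some peaks were picked by p. The count can therefore not be weighed against that share as if the sets were independent. The library of animal 45 (handled, 0 min) accounts for 12 of the 19, each time as the highest of 8. It had 296 CPM at the Per1 region (next 258), 87.7 at Per2 (next 60.8), 71.6 at Per3 (next 51.3), 44.6 at Cry1 (next 32.8), 97.7 at the Cry2 start peak (next 70.2), 32.7 at Clock (next 24.2), 58.9 at Arntl (next 45.5), 398 at Dbp (next 326) and 67.1 at Ciart (next 50.7). It also had 49.6 CPM at the Arntl peak that begins at 113243858 (next 41.7), 47.3 at the Npas2 peak that begins at 39366664 (next 32.7) and 50.8 at the Ciart peak that begins at 95891154 (next 40.3). Gene ends held 42.1% of the counts of that library, the highest of 30. The part of this share in the values was not tested.

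The other 7 were spread over 6 animals. Animal 66 (chronic, 45 min) had 59.5 CPM at the Per3 start peak (next 52.1) and 74.6 at the Cry2 start peak (next 66.5). At the Arntl peak that begins at 113255392, animal 29 (handled, 0 min) had 3.74 CPM, above the next at 2.97, and animal 18 (handled, 45 min) had 1.61, below the next at 2.30. Animal 40 (handled, 0 min) had 1.14 CPM at the Arntl peak that begins at 113298850 (next 0.804). Animal 59 (handled, 45 min) had 5.38 CPM at the Npas2 peak that begins at 39246962 (next 4.23). Animal 34 (chronic, 0 min) had 2.04 CPM at the Dbp peak that begins at 45695968 (next 1.55).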

How the results depend on the processing

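No clock peak was called in any of the 8 comparisons with DESeq2, RLE or total count scaling, no filter, each batch or animal 45 left out, or over gene bodies alone. The same held in each sex alone, where the comparison of females with males could not be made. DESeq2 gave no adjusted p for up to 169 of the 248 peaks. With the share of counts in the top 1% of peaks as a covariate, 1 peak was called for the averaged acute effect, the short one before Clock (0.46 ± 0.13, edgeR adjusted p = 0.0494). Of the 10 genes with summed counts, 1 was called for the averaged acute effect with RLE scaling (Per3), 1 with total count scaling (Arntl) and 2 without animal 45. Within batch 2 alone Arntl was called. The sum of Per3 stayed positive and that of Arntl negative in every setting run. Co-variation gave 4 pairs in place of 45 with the share of counts at gene ends as a term. For these moves the cause was not tested.

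Of the values recomputed under another setting, 741 kept direction and side of the threshold and 62 changed sign, none of them called before or after. In males alone, the acute peak changes were 0.0357 at Per1, 0.0245 at Per2, 0.0146 at Cry1, 0.0215 at Cry2, 0.0158 at Arntl and 0.0168 at Dbp, the chronic peak changes were 0.0148 at Per1, 0.0447 at Per2, 0.0365 at Per3, 0.00202 at the wide Cry2 region, 0.0342 at Cry2, 0.0195 at Clock, 0.0175 at Arntl, 0.0353 at Dbp and 0.0252 at Ciart, and the chronic summed changes were 0.0119 at Per1 and 0.000574 at Ciart. Without batch 4, the acute peak changes were 0.00816 at Per1, 0.0206 at Per2, 0.00152 at Cry2, 0.00653 at Clock and 0.00577 at Dbp, the chronic peak changes were 0.0272 at Per3, 0.00477 at the wide Cry2 region and 0.0205 at Dbp, and the chronic summed change was 0.0062 at Arntl. Without animal 45, the acute peak changes were 0.0135 at Per1, 0.024 at Per2, 0.00121 at Cry2 and 0.00637 at Dbp, the chronic peak changes were 0.00465 at Per2, 0.0129 at Per3, 0.00152 at the wide Cry2 region and 0.0126 at Dbp, and the acute summed change was 0.00137 at Ciart. In females alone, the acute peak change was 0.0367 at the Ciart peak with the smallest p, the acute summed changes were -0.00276 at Per1, 0.00407 at Cry2 and 0.0132 at Ciart, and the chronic summed changes were 0.00708 at Cry2, 0.0241 at Arntl, 0.0257 at Npas2 and -0.00223 at Dbp. Without batch 1, the acute peak change was 0.00893 at Per1, the acute summed changes were 0.000777 at Cry2 and 0.00121 at Dbp, and the chronic summed change was 0.00342 at Arntl. Without batch 2, the acute peak changes were 0.00137 at Per1 and -0.00783 at Ciart, and the chronic summed change was -0.000488 at Per3. Without batch 3, the acute peak change was -0.00874 at Ciart, the acute summed change was -0.00252 at Per1, and the chronic summed changes were 0.00161 at Per2, 0.000251 at Cry2 and 0.000949 at Npas2. Over the gene body alone, the acute summed changes were -1.65e-05 at Per1, 0.00314 at Cry2 and 0.0159 at Ciart, and the chronic summed change was 0.00108 at Arntl. With total count scaling, the chronic peak changes were 0.00711 at the wide Cry2 region and 0.000855 at Dbp. With that covariate of top peaks, the acute peak change was -0.0171 at Ciart.

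No paired analysis was possible because the animal numbers are unique and no 2 groups share one. Depth limits the short peaks most: one with 30.4 counts per library had a standard error of 0.12, against 0.032 for the Per1 region.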
